A study of Mus musculus with 16 samples.

Results

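The cytosolic ribosomal protein genes code for the proteins of the 40S and 60S subunits of the ribosome outside mitochondria. They were chosen by symbol (Rps and Rpl names, with Rpsa, Rplp0 to Rplp2 and the "like" paralogues), which found 84 of the 31053 genes of the table. Of these, 32 are 40S and 52 are 60S members. Fau and Rack1, whose proteins also sit on the ribosome, fall outside the symbol rule and are given apart.

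The cells came from AOM/DSS tumour organoids of mouse, three-dimensional cultures of colon tumour cells induced with the carcinogen azoxymethane and the irritant dextran sulfate sodium, at passage 14. The control library is KMT9wt/wt and was labelled minus TAM. The knockout library is KMT9ko/ko and was labelled plus TAM. Knockout and the agent called TAM, which the labels do not spell out, always go together, so their effects cannot be told apart. KMT9 is a methyltransferase whose catalytic subunit is encoded by N6amt1 and whose partner is Trmt112. N6amt1 stood at 34.05 CPM (UMIs of a gene scaled to 1000000 UMIs of the library) in control and 6.11 CPM in knockout cells. The series lists 16 records, 8 for each group, but its design text speaks of 2 samples, and 1 matrix stands for each group. Each group is therefore 1 library with no replicate, no difference below was tested, and intervals cover counting error only. The labels do not say how many organoid cultures, clones or animals stand behind a library.

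The ribosome joins amino acids into protein, and each subunit holds 1 copy of nearly every ribosomal protein. Messages for these proteins are among the most abundant in a growing cell. They begin with a run of pyrimidines just after the cap, the 5′ TOP element, through which TOR signalling and Larp1 tune their translation. Rpl5 and Rpl11, with the 5S RNA, can bind Mdm2 when assembly of the ribosome is disturbed. In the intestine these messages are known to be plentiful in the dividing cells of the crypt and less so in mature absorptive cells.

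A start window was available for 64 of the 84 genes, in 76 windows, from RefSeq on GRCm38.p6. The letters CTTTC or CTTCC, cores of a pyrimidine run that can share their end base, were searched in the 10 bases before the annotated start and the first 50 from it. On the coding strand, which reads as the message does, 59.2% of the 76 windows held one or both, against 18.1% of all 32851 RefSeq windows. On the other strand the shares were 22.4% and 20.998%. The 3 members with the highest ratio of knockout over control that are described below, a paralogue that was higher, and the 2 with the lowest ratio are printed 5′ to 3′ as the 10 bases before the annotated start and the first 20 from it, with the motif in capitals.
Rpl39: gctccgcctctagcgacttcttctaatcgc
Rps28: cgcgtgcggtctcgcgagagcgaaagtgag
Rpl36a: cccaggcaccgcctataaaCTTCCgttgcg
Rpl22l1: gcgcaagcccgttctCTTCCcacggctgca
Rpl18: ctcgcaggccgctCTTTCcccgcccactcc
Rps15: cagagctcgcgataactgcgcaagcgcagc
Their positions are chrX:37085203-37085232 on the minus strand for Rpl39, chr17:33824543-33824572 on the minus strand for Rps28 and chrX:134585644-134585673 on the plus strand for Rpl36a. Those of Rpl22l1, chr3:28805498-28805527, Rpl18, chr7:45718061-45718090, and Rps15, chr10:80292421-80292450, lie on the plus strand. Each window spans the upstream flank and the first bases of the first exon. Members higher and lower in the knockout library both held the motif inside these 30 bases, and both had members without it there. Over all the bases searched, Rpl39, Rpl36a, Rpl22l1, Rpl18 and Rps15 held a motif and Rps28 did not.

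The 2 matrices held 3618 and 2078 barcodes, of which 2629 control and 1481 knockout cells were kept, with a median of 24604 and 24184 UMIs per cell. All 12 epithelial markers reached 10 CPM in at least 1 library, while the 8 fibroblast markers together summed to 0.117 and 0.268 CPM. The 10 immune markers summed to 54.9 and 66.4 CPM and the 6 endothelial markers to 10.9 and 23.5 CPM. A total of 498 barcodes occurred in both matrices. They made up 166 of the kept control cells and 325 of the kept knockout cells, and for 319 of those 325 the control copy had fewer UMIs than the knockout copy. In turn, for 157 of the 166 the knockout copy had fewer UMIs, and 15 of the 498 were kept in both libraries. The shares, the counts of members between the libraries and the leading members below are given with and without these barcodes.

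Ribosomal protein messages filled nearly the same part of both libraries. They took 15868105 of 68666384 control UMIs, or 23.1%, and 8767570 of 37301715 knockout UMIs, or 23.5%. The 95% Clopper-Pearson intervals ran from 23.10% to 23.12% and from 23.49% to 23.52%. The 40S members made 9.83% and 9.76% of UMIs and the 60S members 13.3% and 13.7%. Without the barcodes found in both matrices the share was 23.2% in the control and 25.04% in the knockout library.

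The share varied more from cell to cell in the knockout library. Its median per cell was 22.7% in the control (quartiles 20.4% and 25.03%) and 23.5% in the knockout (quartiles 19.9% and 26.5%), with SDs over cells of 4.12 and 6.02 percentage points. At the 5th percentile a control cell held 16.3% and a knockout cell 11.1%. Cells under 12%, a limit set after the values were seen, numbered 42 of 2629 (1.60%) and 88 of 1481 (5.94%). These low cells had a median of 7368 and 7345 UMIs and of 11.01% and 8.56% mitochondrial UMIs, against 2.88% and 2.86% over all kept cells. A barcode found in both matrices was carried by 1 of the 42 (2.38%) and 19 of the 88 (21.6%), against 6.31% and 21.9% of all kept cells of the same libraries. Knockout cells with such a barcode had a median share of 19.8%, and the other knockout cells 24.6%. In the control library the same medians were 21.9% and 22.7%. The part of depth, cell quality and shared barcodes in the wider knockout spread was not tested.

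Single genes spanned a wide range of levels. The reads tag 1 end of each message, so CPM is a count of molecules that is not divided by length. Over the 81 members that reached 10 CPM in at least 1 library, the median level was 2609 CPM in control and 2793 CPM in knockout cells, and 77 of the 81 stood at 1000 CPM or more in each. Rplp0, the base of the stalk that recruits elongation factors, was highest in the control at 7624 CPM and stood at 7066 CPM in the knockout. It was followed by Rps18 at 6631 and 5776 CPM, Rps19, which is mutated in Diamond-Blackfan anaemia, at 6209 and 6073 CPM, Rpl13 at 6160 and 6139 CPM, and Rpl41 at 5954 and 7038 CPM. The lowest member at 10 CPM or more was the paralogue Rpl7l1, at 147 and 132 CPM.

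The members below 10 CPM are paralogues known from other tissues. Rpl3l, the form of striated muscle, had 2 UMIs in each library. Rpl10l and Rpl39l, known from the testis, had 0 UMIs in both, which allows up to 0.0437 CPM in control and 0.0804 CPM in knockout cells.

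The group as a whole was level between the libraries, and a few small proteins stood above it. The median log2 ratio of the 81 members was 0.00 (-0.00045), against -0.06 over all 7910 genes with 10 or more CPM. At 1.5-fold or more 3 members were higher in the knockout library, where 8.12% of all genes were, and 0 were lower, where 10.7% were. At 1.2-fold or more 13 were higher and 2 lower, against 21.5% and 31.2% of all genes. Of the 81 members 40 had a ratio above 0. Without the barcodes found in both matrices 20 members changed sign, the farthest of which had been 0.0822 from 0 on the log2 scale. The share of members past each threshold was thus under that of all genes, most clearly on the lower side.

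Rpl39, a 51-residue protein of the peptide exit tunnel, had 1732 CPM in control and 2819 CPM in knockout cells, a log2 ratio of 0.70 (0.69 to 0.71). Rps28, a 69-residue 40S protein near the messenger exit, had 1888 and 2982 CPM, a log2 ratio of 0.66 (0.65 to 0.67). Rpl36a, a 60S protein of 106 residues, had 1147 and 1794 CPM, a log2 ratio of 0.65 (0.63 to 0.66). These 3 were the members past 1.5-fold. Rpl36a shares most of its 3′ end with a pseudogene of the table, Rpl36a-ps1, which had 11.7 and 17.2 CPM, and the ratio of their sum was also 0.65.

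The next members fell short of 1.5-fold. Rpl37a had 2143 and 3059 CPM (log2 ratio 0.51), Rps29 2467 and 3352 CPM (0.44), and Rpl22l1, the paralogue of Rpl22, 1359 and 1813 CPM (0.42). Rps21, at 717 and 956 CPM, had a log2 ratio of 0.41. Rpl37a and Rps29 are zinc-binding proteins of the mature subunits.

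At the other end, Rpl18 had 3122 CPM in control and 2480 CPM in knockout cells, a log2 ratio of -0.33 (-0.34 to -0.32). Rps15, a 40S protein of the head that faces the decoding site, had 2556 and 2062 CPM, a log2 ratio of -0.31. Rps27l, a paralogue of Rps27 known as a p53 target, had 1520 and 1281 CPM (-0.25). Rps2 had 4457 and 3758 CPM (-0.25), Rpl29 2384 and 2028 CPM (-0.23) and Rpl36 3732 and 3193 CPM (-0.23). Only Rpl18 and Rps15 were 1.2-fold or more lower.

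The higher members were mostly short proteins. Of the 10 members of at most 100 residues, 9 had a ratio above 0, 7 were 1.2-fold or more higher, and the median log2 ratio was 0.37. The 29 members above 100 and up to 150 residues had a median of 0.02, the 19 above 150 and up to 200 residues one of -0.05 and the 23 longer ones also -0.05. Rps27l, with 84 residues, was the exception among the short ones. Over 81 members, Spearman's rho of ratio with protein length was -0.39 and with the control level -0.37. The control level is also the denominator of the ratio, so a negative rho with it is partly built in. Length and control level were themselves related, with a rho of 0.36. Among the 71 members of more than 100 residues the rho with length was -0.22. These correlations are across genes of the same 2 libraries and describe them only. Protein length was taken up after the ratios had been seen, and a part of transcript ends, message length or mapping in this pattern was not tested.

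**Figure D1:**
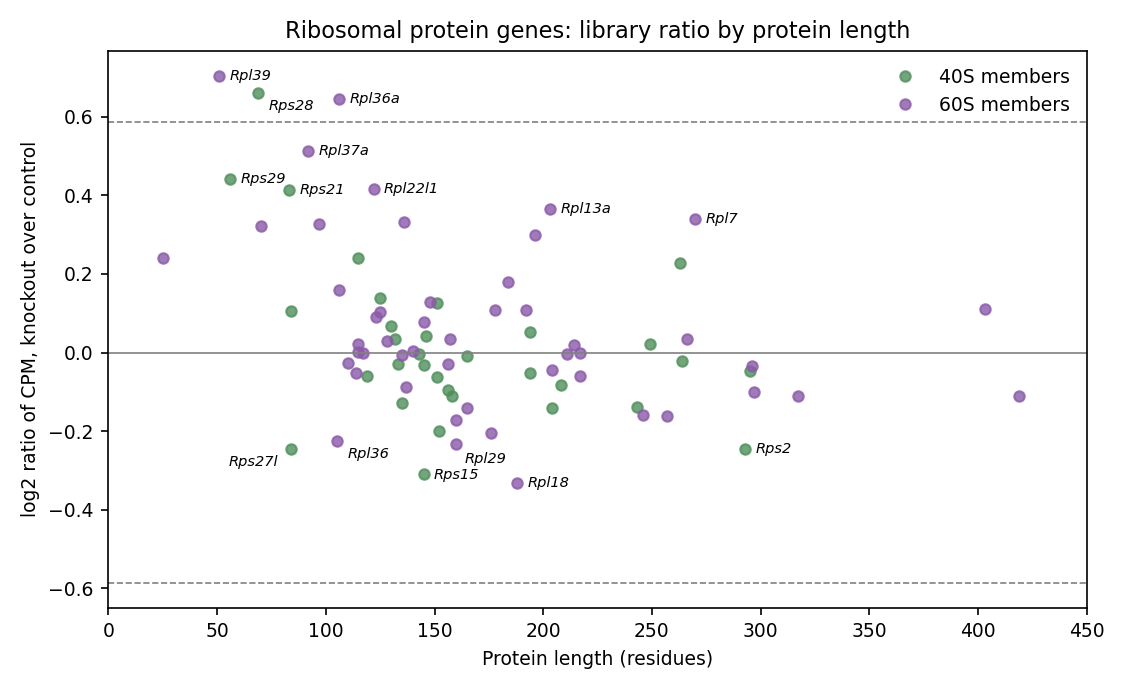
Log2 ratio of CPM, knockout over control (y axis), against protein length in residues (x axis) for the 81 measured members, 1 point a gene, coloured by subunit, with dashed lines at 1.5-fold. The 3 points above the upper line are Rpl39, Rps28 and Rpl36a, and no point lies below the lower line.

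The stalk proteins had 7624 and 7066 CPM for Rplp0 (log2 ratio -0.11), 2897 and 2793 CPM for Rplp1 (-0.05) and 2403 and 2440 CPM for Rplp2 (0.02). The 5S particle proteins had 1179 and 1101 CPM for Rpl5 (-0.10) and 2107 and 2269 CPM for Rpl11 (0.11). Neither was 1.2-fold apart. Rps6, the substrate of S6 kinase, had 3777 and 3835 CPM (0.02), and Rpsa, also known as the laminin receptor, 2248 and 2174 CPM (-0.05). Rpl10a had 2626 and 2625 CPM (-0.00045), and Rps25, needed for some internal ribosome entry sites, 1498 and 1648 CPM (0.14). Rpl38, known for its part in translating Hox messages, was higher, with 1636 and 2046 CPM (0.32).

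Fau and Rack1, outside the symbol rule, were also close to even. Fau, a fusion with Rps30, had 2273 and 2490 CPM (log2 ratio 0.13). Rack1, a scaffold on the 40S head, had 1469 and 1315 CPM (-0.16).

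The libraries differ in the mix of cell states, and the leading ratios were smaller once that mix was equalised. Control cells weighted to the state shares of the knockout library gave 0 members at 1.5-fold or more, in place of 3. The share of all genes under this weighting was not computed. The weighting also leans on few control cells, with 40 in state 4 for 318 knockout cells, 4 in state 10 for 28 and 1 in state 11 for 12. Rpl39 then had a log2 ratio of 0.49, Rps28 of 0.56 and Rpl36a of 0.47. Rpl18 and Rps15 had -0.26 and -0.25. Both of these were then under 1.2-fold. Over all 81 members the ratio came closer to 0 in 52 and moved away from it in 29, such as Rpl27 (0.33 to 0.36), and 9 changed sign, among them Rpl10 and Rpl7l1 (-0.16 to 0.06). Without the barcodes found in both matrices the same 5 genes had log2 ratios of 0.77, 0.73, 0.72, -0.23 and -0.23, so that Rpl18 and Rps15 again fell short of 1.2-fold, and 3 members were 1.5-fold higher. No sign changed among these 5 in either setting.

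Cells were clustered without the members, so that the members did not set the states. The 13 clusters were numbered from 0, and a cluster found mostly in 1 library may be that library and not a type. State 3, cycling-like, led by Nusap1 and Ube2c, and states 7 and 10, colonocyte-like, were named from markers. State 9 held cells with a median of 3609 and 3867 UMIs, led by Lars2 and Hspa1b, and is left unnamed. The others are called by their leading genes, although some also held markers 2-fold or more above the other cells. Among these were 5 of 12 hypoxia genes in state 6 and 7 of 10 enteroendocrine genes in state 12. Of 15 squamous-like genes, state 4 held 7 and state 1 held 3.

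Among states with 40 or more cells of a library, the share was highest in state 6 (Asprv1, Spp1, Egln3) in both libraries. State 6 had 26.3% in 44 control cells and 26.2% in 183 knockout cells. State 2 (Cadps, Plat, Mt3) had 25.1% and 24.5%, and state 8 (Ccl2, Hspb1 and heat shock genes) 24.9% and 25.9%. In the control, state 7 had 24.3%, state 0 (Reg4, Tmed6, Ihh) 23.5%, state 1 (Fgfbp1, Krt4) 22.5%, state 9 22.5%, state 5 (Prss56, Pnliprp1) 22.0%, cycling-like state 3 22.0% and state 4 (Inhba, Sprr1a, Clu) 21.5%. In the knockout library state 3 had 24.8%, state 4 21.8%, and states 5 and 9 20.6% each. The cycling-like cells, which are known for a high demand for ribosomes, were thus near the bottom of the control order, while in the knockout library they stood above states 2, 4, 5 and 9.

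States with fewer cells lay farther out. State 11 (Ccl5, Il1a) had 45.7% in 1 control cell and 31.0% in 12 knockout cells, and state 12 (Ang4, Tff3, Chga) 16.1% in 7 control cells and 14.3% in 1 knockout cell. State 7 had 26.7% in 18 knockout cells, state 1 24.7% in 20 and state 0 23.7% in 22. The colonocyte-like state 10 was the lowest of the 13 states. Its 4 control cells had 12.3% and its 28 knockout cells 11.7%, at a median of 38237 and 35840 UMIs. It was led by Clca4a, Muc3 and Car1, genes of mature colonocytes. Of the 28 knockout cells 22 had a barcode found in both matrices and 17 lay under 12%. The 6 without such a barcode had a lower median share, 5.72%, at a median of 8425 UMIs. Of the 88 knockout cells under 12%, state 4 held 29, state 10 held 17 and state 9 held 15.

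**Figure D2:**
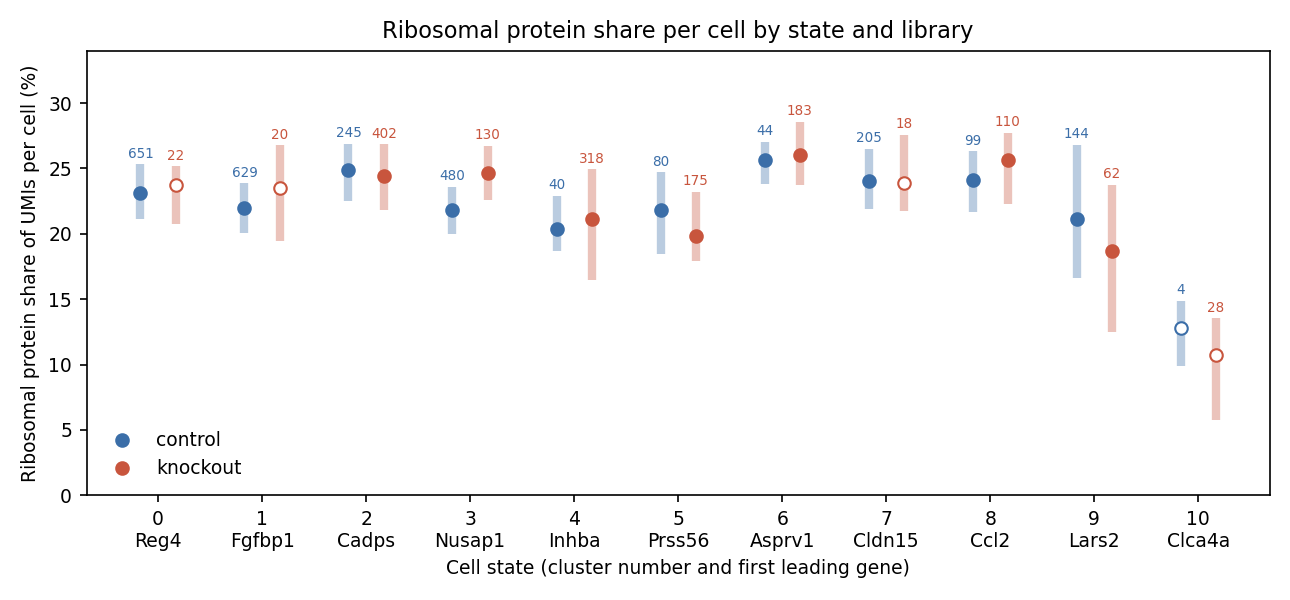
Ribosomal protein share of UMIs per cell in percent (y axis) by cell state (x axis, cluster number and first leading gene), control in blue and knockout in red. Points are medians over cells, open where a library has under 40 cells, bars are the quartiles and the numbers are cells. States 11 and 12, with few cells, are not drawn, and state 10 is the lowest of those drawn in both libraries.

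Within states, the share differed most in the cycling-like cells. State 3 held 22.0% in 480 control cells and 24.8% in 130 knockout cells, a log2 ratio of 0.17. In state 2 the share was 25.1% and 24.5%, a log2 ratio of -0.04. These were the states with 100 or more cells in each library. With 40 or more, a limit set after the values were seen, states 4, 5, 6, 8 and 9 added log2 ratios of 0.02, -0.09, -0.00, 0.05 and -0.13. Without the shared barcodes the knockout share was 25.4% in state 3, 25.1% in state 2, 24.0% in state 4, 22.0% in state 5, 26.7% in state 6, 26.6% in state 8 and 20.8% in state 9. The control shares were then 22.0%, 25.2%, 21.8%, 21.7%, 26.4%, 24.9% and 22.6%. So without these barcodes the knockout share was the higher one in states 3, 4, 5, 6 and 8, the lower one in state 9 and lower by under 0.1 percentage points in state 2. In states 5 and 6 that order was opposite to the one over all kept cells.

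Single members followed the same split. In state 3, 8 of 81 members (9.88%) were 1.5-fold or more higher, which is close to the 7.55% of all genes. None were lower at that size, where 14.6% of all genes were. At 1.2-fold, 27 were higher (33.3%) and 1 lower (1.23%), against 19.7% and 37.1% of all genes. The members' median log2 ratio there was 0.15 and that of all genes -0.12. Without the shared barcodes 9 were 1.5-fold higher.

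The 8 members were led by Rpl36a, with 863 CPM in control and 1840 CPM in knockout cells of state 3 (log2 ratio 1.09), and Rpl39, with 1408 and 2911 CPM (1.05). Rps28 had 1563 and 2973 CPM (0.93), and Rpl37a 1651 and 2924 CPM (0.83). Rps29 had 2142 and 3509 CPM (0.71) and Rpl22l1 1242 and 2036 CPM (0.71). Rps21 (0.65) and Rpl7 (0.62) completed them. The single member that was 1.2-fold lower was Rps27l, with 1729 and 1302 CPM (-0.41).

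In state 2, 0 members were 1.5-fold apart in either direction, where 6.48% of all genes were higher and 2.49% lower. The difference between states 2 and 3 was not tested, since each has 1 library a group. State 4 had 1 member 1.5-fold higher (Rps28) and 0 lower, against 10.5% and 4.96% of all genes. State 5 had 0 and 0, against 9.66% and 5.11%, and state 6 had 0 and 0, against 10.5% and 7.78%. State 8 had 2 higher (Rpl36a, Rps28) and 0 lower, against 8.91% and 7%. In the low-UMI state 9, Rpl39 and Rps28 were higher and Rpl5, Rpl4 and Rps27l lower, 2 and 3 members against 21.2% and 27.8% of all genes. State 9 held 745396 control and 253102 knockout UMIs, so genes near 10 CPM rest on few UMIs there, unlike most members. The part of counting error in these shares of all genes was not tested. Without the shared barcodes the members 1.5-fold higher numbered 3 in state 4 and 3 in state 8, with the other counts of these 6 states as before. The members' median log2 ratio went from -0.01 to 0.12 in state 4, from -0.11 to -0.00 in state 5, from 0.04 to 0.07 in state 8 and from -0.07 to -0.03 in state 2.

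Across the 7 states, 15 of the 81 members had a ratio above 0 in every state and 13 one below 0 in every state. The same counts were not made over all genes, so they are not known to be particular to these members. The 15 were Rpl39, Rps28, Rpl36a, Rpl37a, Rps29, Rpl22l1, Rps21, Rpl13a, Rpl7, Rpl27, Rpl37, Rpl38, Rpl19, Rpl41 and Rps26, with a median of 97 residues. The 13, with a median of 160 residues, included Rpl18, Rps15, Rps27l, Rps2, Rpl29, Rpl36, Rps18, Rpl21, Rpl8, Rps3 and Rpl4, and the median of all 81 was 151. The 7 states come from the same 2 libraries, so they repeat the comparison and do not replicate it. Rps28 was 1.2-fold or more higher in 7 of the 7 states, from a log2 ratio of 0.32 in state 5 (2467 and 3083 CPM) to 0.93 in state 3. Rpl39 was lowest in state 5, at 0.12 (2426 and 2642 CPM), and 1.2-fold or more higher in the other 6. Rpl27 lay between 0.34 and 0.41 in 6 states and at 0.05 in state 9. Rpl18 lay between -0.42 and -0.18 over the 7 states and Rps15 between -0.30 and -0.18.

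**Figure D3:**
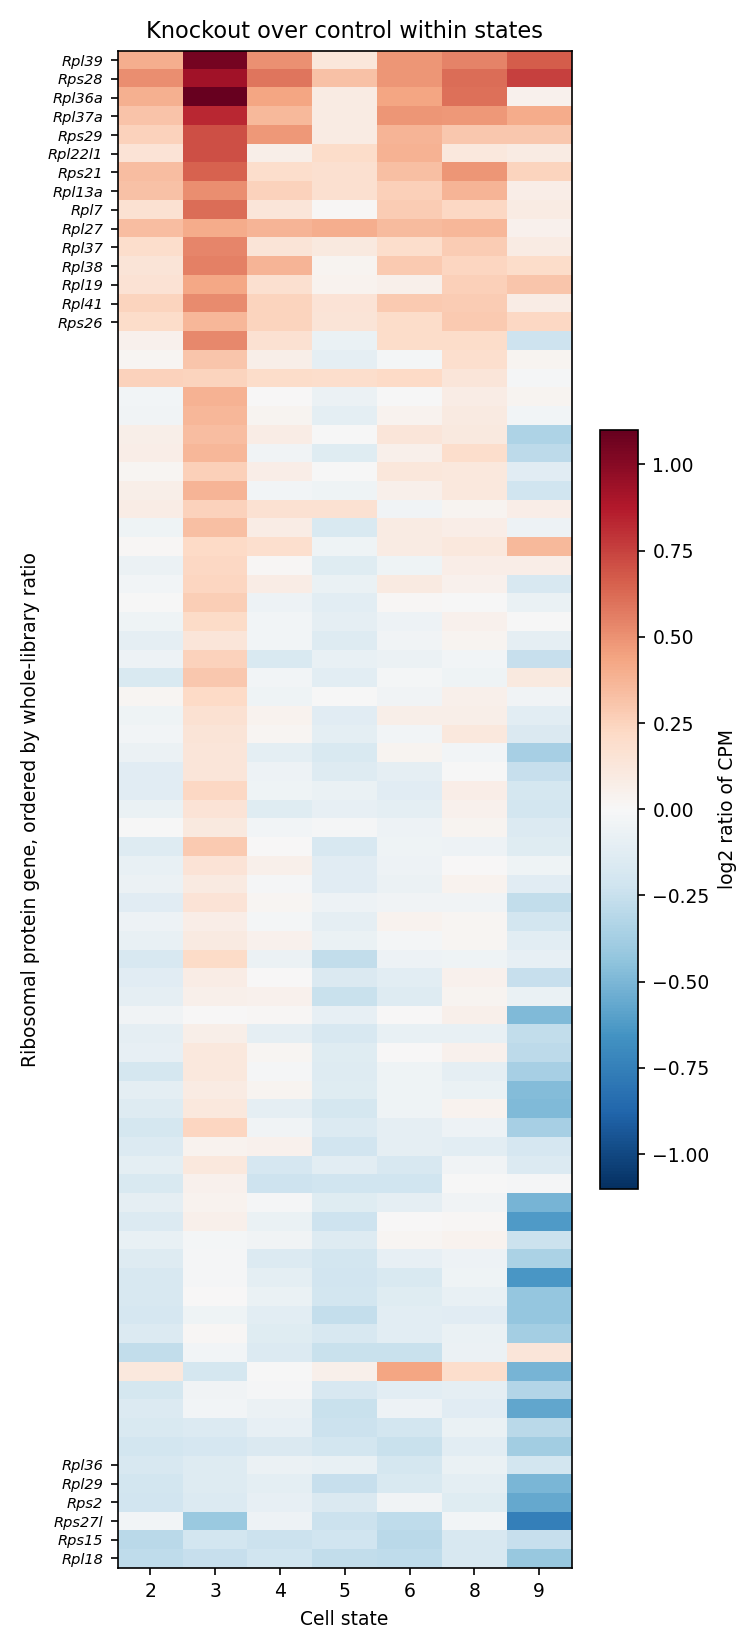
Log2 ratio of CPM, knockout over control, within the 7 states with 40 or more cells in each library (columns) for the 81 measured members (rows, ordered by the ratio of the whole libraries, with names for the first 15 and the last 6), red where the knockout is higher and blue where it is lower. The upper rows are red across columns and darkest in state 3, where Rpl36a reached 1.09, and the lowest rows are blue across columns.

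Members that broke from the group between states were found by dividing each member by all member UMIs of the same cells, within 1 library. The shares of all genes given beside them used the same division. It keeps the members as a set close to even but not the other genes, so members under those shares are in part fixed in advance. In the control library 16 members were 1.5-fold or more apart from the other cells in at least 1 of 6 states with 100 or more cells. Of these, 15 were in the low-UMI state 9 alone, where 5 were higher and 10 lower, against 29% and 19.7% of all genes. With 745396 control UMIs in state 9, genes near 10 CPM rest on few UMIs, and the part of counting error in these 2 shares was not tested. Rpsa had 4807 CPM in state 9 and 2220 CPM in the other control cells, a log2 relative share of 1.15. Rpl36 had 7481 and 3691 CPM (1.06) and Rpl38 2870 and 1623 CPM (0.86). Lower there were Rpl10, with 1578 and 3191 CPM (-0.98), Rpl7, with 1397 and 2778 CPM (-0.95), and Rplp0, with 4084 and 7663 CPM (-0.87). The median mitochondrial share of state 9 in the control was 7.66%, against 2.61% to 3.05% in the other 5 of the 6 states, and the part of cell quality in these differences was not tested.

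Outside state 9, Rps27l was the member past 1.5-fold in the control library. In state 0 it had 1095 CPM, against 1628 CPM in the other cells, a log2 relative share of -0.60, and it was the 1 member lower there (0 were higher), against 8.5% and 6.13% of all genes. In state 1 it had 1772 and 1422 CPM (0.37). Rpl7 and Rpl22l1 went the other way in state 0, with 3596 and 2551 CPM (0.47) and 1736 and 1263 CPM (0.43). In the knockout library no member passed 1.5-fold in the 6 states with 100 or more cells. These did not include states 9 and 0, where the control members past 1.5-fold lay and which had 62 and 22 knockout cells. The counts of the 2 libraries thus cover different states and cannot be set against each other. Of all genes in the 6 knockout states, from 1.54% (state 6) to 25.4% (state 5) were higher, and from 9.29% (state 4) to 16.3% (state 6) were lower. These shares are also per member UMI and hold the shift of the ribosomal protein share. The median log2 value of all genes was 0.24 in state 5 and -0.25 in state 6, and that of the members -0.02 and -0.00. Rps27l had the widest range over the 6 knockout states, from -0.36 in state 5 (893 and 1324 CPM) to 0.32 in state 4 (1404 and 1241 CPM). By CPM, Rpsa, Rpl36, Rpl38, Rpl10, Rpl7 and Rplp0 lay on the same side in knockout state 9 as in control state 9. Rpsa had 3943 CPM there, against 1584 to 2585 CPM in the 6 larger knockout states, and Rpl10 1225 CPM, against 2862 to 3643 CPM. Their relative shares in knockout state 9 were not computed.

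The paralogue pairs show the same breaks as shares of a pair, which do not depend on the other genes. Rps27l made 34.1% of the UMIs of Rps27 and Rps27l in the control and 28.8% in the knockout library. Across control states it ranged from 25.9% in state 0 (25.6% to 26.3%) to 39.3% in cycling-like state 3 (38.9% to 39.6%). In state 3 of the knockout library it was 29.0%. Its share was lower in the knockout library in each of the 7 states compared, least so in state 8, at 27.6% and 26.8%. Rps27 itself had 2937 and 3161 CPM (log2 ratio 0.11), but 98.4% of the windows at its 3′ end are shared with Rps27rt, so the split between these copies is uncertain.

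Rpl22l1 made 61.4% of the UMIs of Rpl22 and Rpl22l1 in the control and 67.6% in the knockout library. Rpl22 had 853 and 870 CPM (log2 ratio 0.03), so the difference of the pair lay in Rpl22l1. By state the control share ran from 49.96% in state 9 and 55.0% in state 7 to 68.6% in state 8. Within state 3 it was 60.6% and 68.5%, and within state 8 68.6% and 69.6%.

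**Figure D4:**
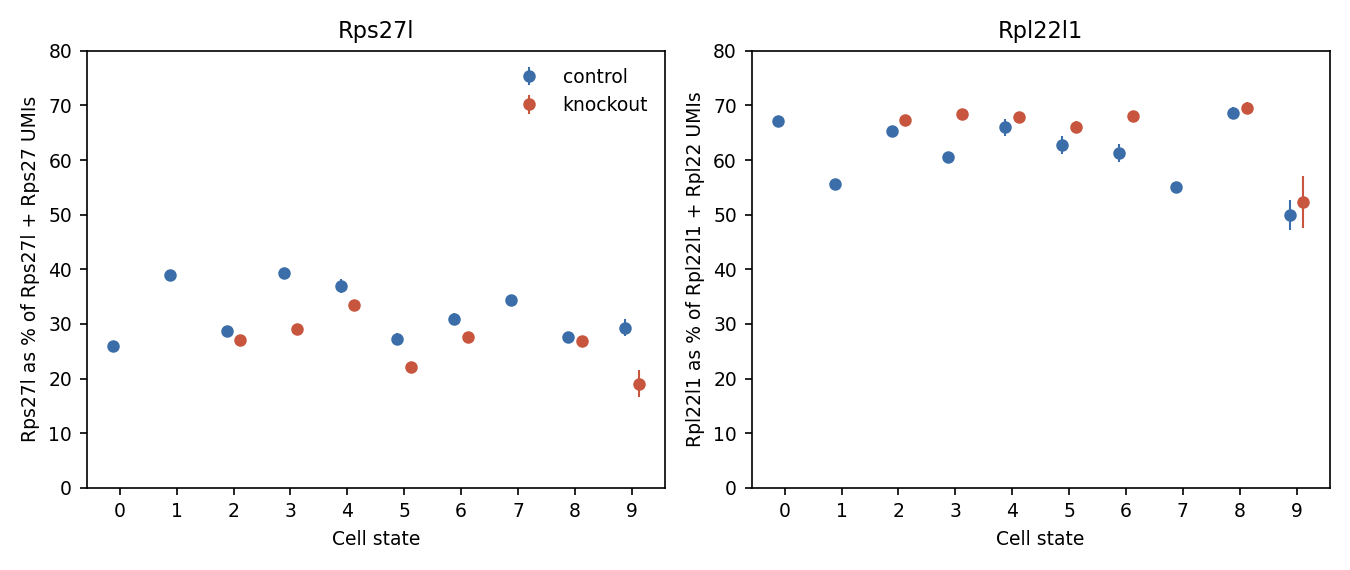
Share of Rps27l in the UMIs of Rps27l and Rps27 (left) and of Rpl22l1 in those of Rpl22l1 and Rpl22 (right), in percent, by cell state for states with 40 or more cells, control in blue and knockout in red, with 95% Clopper-Pearson intervals. In state 3 Rps27l stood at 39.3% and 29.0% and Rpl22l1 at 60.6% and 68.5%.

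The other pairs were more one-sided. Rpl7l1 made 5.07% of its pair with Rpl7 in the control and 3.64% in the knockout library, with 2763 and 3494 CPM (log2 ratio 0.34) for Rpl7 and a log2 ratio of -0.16 for Rpl7l1. Rpl36al made 30.9% and 24.2% of its pair with Rpl36a, with 512 and 571 CPM (0.16) for Rpl36al. Rpl3 had 4248 and 4584 CPM (0.11), Rpl10 3173 and 3216 CPM (0.02), Rps4x 2758 and 3227 CPM (0.23) and Rps3a1 2929 and 2885 CPM (-0.02). The partners Rps4l, Rps3a2 and Rps3a3 were not analysed here.

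Genes that build the ribosome lay lower in the knockout library than its proteins did, without a test of that difference. Of 32 measured ribosome biogenesis genes, 13 were 1.5-fold or more lower in the knockout library and 0 higher, with a median log2 ratio of -0.50. Rrs1, an assembly factor that brings in the 5S particle, had 196 and 89.8 CPM (-1.13), Bysl 62.8 and 31.7 CPM (-0.99), Nop2, a ribosomal RNA methyltransferase, 83.4 and 43.6 CPM (-0.94), and Nolc1 160 and 89.1 CPM (-0.85). Of 8 dedicated chaperones, which carry single ribosomal proteins to the ribosome, 2 were 1.5-fold lower and 0 higher, with a median of -0.40. These 2 were Rrs1 and Grwd1, the chaperone of Rpl3, at 68.0 and 36.5 CPM (-0.90). The list members were picked with earlier results known and 10.7% of all genes were lower at this size, so these counts describe the lists only. Markers of dividing cells were also lower, with sums of 1454 and 735 CPM for 28 S phase genes and of 943 and 613 CPM for 24 genes of G2 and M phase, and their part in these lists and in the mitochondrial and p53 lists given next was not tested.

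The ribosomal proteins of mitochondria had a lower median than the cytosolic ones. Of 77 measured, 19 were 1.5-fold or more lower and 0 higher, against 10.7% and 8.12% of all genes, with a median log2 ratio of -0.45, and Mrpl43 (194 and 107 CPM, -0.87) and Mrpl12 (343 and 191 CPM, -0.84) were among the lowest. Of 18 other genes listed for messages with a 5′ TOP element, mostly translation factors, 0 were 1.5-fold apart either way. Over all genes 8.12% were higher and 10.7% lower. The median log2 ratio of the 18, -0.00, was close to that of the cytosolic members. Eef1a1, which brings transfer RNA to the ribosome, had 5808 and 5802 CPM (-0.00). Pabpc1, the poly(A)-binding protein, had 761 and 1110 CPM (0.54) and Eef1d 529 and 405 CPM (-0.38).

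Regulators gave a mixed picture. Of 13 measured genes of TOR and translation control 0 were 1.5-fold apart, with a median log2 ratio of -0.09. Mtor, the kinase, had 18.3 and 12.3 CPM (-0.58), and Eif4ebp1, its target that restrains cap-dependent translation, 606 and 417 CPM (-0.54). Of 12 genes of Mdm2 and p53 targets 2 were 1.5-fold lower and 0 higher, against 10.7% and 8.12% of all genes, with a median of -0.32, namely Bbc3 at 112 and 66.4 CPM (-0.76) and Gdf15 at 446 and 288 CPM (-0.63). Of 5 genes made up of Trmt112, partners of it and their release factor substrate, 1 was 1.5-fold lower, N6amt1 itself. Bud23, which methylates the 18S RNA, had 70.7 and 48.2 CPM (-0.55) and Trmt112 209 and 165 CPM (-0.34).

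Over 17 sums of cells by state and library, the genes whose log2 CPM was closest to the log2 ribosomal protein share, by Pearson's r among 2892 other genes of 50 or more CPM, were Ak3, an adenylate kinase of mitochondria, at 0.88, Mif at 0.81, Rack1 at 0.79, Pkm, a pyruvate kinase, at 0.78, Eif3k at 0.77, Hnrnpm at 0.77, Pfkl at 0.77 and Ffar4 at 0.75. The most opposite were Sox9 at -0.78, Krit1 at -0.77, Proser2 at -0.72 and Qrich1 at -0.72. The 17 points share 2 libraries and their depth, and the share is part of the total by which every gene is scaled, so these values are descriptions.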

How the data were processed

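Single cells of 2 libraries were profiled with the 10x Chromium 3′ kit, version 2 chemistry, per the labels. The authors deposited 1 matrix of raw, whole-number UMI counts for each group. Per the file headers these came from Cell Ranger 3.1.0, and mm10 is the genome named in the submitters' processing notes. Other steps are not given in the sources used here. The files are named for day 5.

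Kept cells had 1000 or more genes, 2000 or more UMIs and a mitochondrial share of 20% or less, which removed 931 and 579 barcodes. The automatic Scrublet threshold (scanpy 1.11.5) marked 12 control and 3 knockout cells, under 0.5%, so the top-scoring 58 and 18 cells were removed instead. Counts were summed and scaled to CPM. A gene was measured at 10 or more CPM in at least 1 library. Size thresholds were 1.5-fold and 1.2-fold, without pseudocount. Intervals are exact (95%) and a gene at 0 in 1 library took 3 counts. Clusters came from 2000 variable genes with the members, their pseudogenes and mitochondrial genes left out, 30 components, 15 neighbours and Leiden resolution 0.8. Positions and lengths came from GENCODE M21, which held all 84 members, and 30934 of 31053 identifiers. The factors of the trimmed mean of M values came from edgeR 4.0.16. Ratios were tested on simulated data.

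Named are the members highest and lowest in level and in ratio, those with the widest range over states, all paralogue pairs, 14 preset genes, up to 4 genes of each list and the genes most like the ribosomal protein share. Rpl27 was given values after they were seen. A few genes are not reported here by name. Members and lists were chosen with earlier results of these data known. Settings tried were other filters, doublet handling, shared barcodes, scalings, thinning, weighting and clusterings.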

Additional observations from a re-analysis of the deposited data

How the results depend on the processing

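The share of UMIs stayed near its value under most settings. It was 23.0% and 23.3% (control and knockout) without a cell filter, 23.2% and 23.6% with a stricter one, 22.8% and 23.1% with cells thinned to 5000 UMIs (142 and 94 cells left out), 22.7% and 23.5% as a median over cells and 23.0% and 23.8% without colonocyte-like clusters. It was 23.1% in the control without doublet removal and 23.3% with control cells weighted by state. Without barcodes in both matrices it was 23.2% and 25.04%, which moved the median log2 ratio of the members to 0.0813. That median was -0.00614 without a filter, 0.00479 with the stricter one, 0.00699 over all genes but the members, -0.0306 with trimmed mean of M values factors, -0.0249 within the ribosomal protein pool, -0.0034 thinned, -0.0155 weighted and 0.0202 without colonocyte-like clusters.

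At 1.2-fold, without weighting, 13 members were higher and 2 lower. At 1.5-fold, weighting left 0 higher and 0 lower, and the other settings gave 3 or 4 higher and 0 lower. The 1.2-fold count was not made under weighting, where Rps28 (log2 ratio 0.56) and Rpl39 (0.49) were still past 1.2-fold. Among states with 100 or more cells, the gap between the highest and the lowest share was 3.17 percentage points in the control and 5.61 in the knockout. These gaps span different states, with only states 2 and 3 in both sets. Over the 7 states with 40 or more cells in each library the shares ran from 21.5% to 26.3% in the control and from 20.6% to 26.2% in the knockout. The gap among states with 100 or more cells was 2.90 and 5.28 at resolution 0.4, 3.92 and 6.57 at 1.2, and 2.59 and 4.20 with the members among the variable genes. It was 3.34 and 5.94 with the stricter filter and 4.06 and 2.85 without the shared barcodes, where only 3 knockout states had 100 cells. Breaks in the control went from 16 members to 1, Rps27l, with the stricter filter and, chosen after seeing the data, without state 9.

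Of all 81 members, 20 changed sign without the shared barcodes, 9 under weighting, 5 within the ribosomal protein pool and 6 with trimmed mean of M values factors; the 6 highest and 6 lowest did not. Replicates could not be left out, as the 8 records of a group are pooled. No paired analysis was possible because each group is 1 matrix whose columns carry no replicate number. Depth limits the low-UMI state 9 most.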
